A study of Mus musculus with 12 samples.

Results

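The genes described here are the nuclear-encoded subunits of the mitochondrial respiratory chain and ATP synthase, measured in differentiating mouse myoblasts with and without exogenous myogenin and an inhibitor of p38 MAP kinase. A gene was a member if a transcript cluster (the probe set that stands for 1 transcript region on the array) carried exactly 1 gene symbol and that symbol was an Nduf, Uqcr, Cox or Atp5 subunit, Sdha to Sdhd, Cyc1 or Cycs. The Ndufaf assembly factors and the muscle isoforms Cox6a2, Cox7a1 and Cox8b were left out. The rule used no measured value except to take the cluster with the highest mean where a gene had several, and it gave 81 genes, from 108 clusters, of 19938 genes and 21789 clusters with 1 symbol. Complex I held 34 genes, complex II 4, complex III 9, complex IV 16 and complex V 17, with Cycs, the mobile carrier cytochrome c, as 1 more.

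All cells were C2i-Myog, 1 stable line made from C2C12 mouse myoblasts that carries a doxycycline-inducible cDNA for myogenin (Myog), a transcription factor of late muscle differentiation, with a Flag tag. The sources used here do not say whether the line is a single clone. The protocol given with every sample moves nearly confluent cells for 48 h into medium of 1% horse serum plus 10 µg/mL each of insulin and transferrin, which makes myoblasts differentiate. Of 4 groups of 3 arrays, control received neither agent, Dox received doxycycline at 0.2 µg/mL, SB received SB203580, an inhibitor of p38α and p38β, at 10 µM, and SB+Dox received both. Differentiation is not named in the label of the control arrays themselves. Every group carried the transgene, so effects of doxycycline itself and of exogenous Myog cannot be told apart. Whether replicates were separate cultures is not stated, and p-values therefore measure no more than the spread between these arrays.

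Complex I takes electrons from NADH and complex II takes them from succinate, both pass them through ubiquinone to complex III, and cytochrome c carries them to complex IV, which reduces oxygen. Complexes I, III and IV pump protons across the inner mitochondrial membrane, and ATP synthase, called complex V, uses that gradient to make ATP. Most subunits are encoded in the nucleus, and many of their promoters carry sites for the nuclear respiratory factors NRF1 and GABPA, whose coactivator PGC-1α (Ppargc1a) raises mitochondrial content in muscle as it matures.

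The promoter stretches below show the letters of an NRF1 site close to the start of the gene, which the rule did not use. Most member promoters did not hold these letters. The stretches come from 4 members that hold them and whose signal differed between groups below. The letters GCGCA and GCGC with any 1 base between them, searched on both strands, were present in 17 of the 71 promoters that the RefSeq promoter table (GRCm38.p6, 300 bases around each start) held for 66 of the members. That is 23.9%, against 4.6% of all 32851 promoters in the table. Capitals mark each match, each line is written 5′ to 3′ on the gene's own strand, and all 4 genes lie on the minus strand. The Ndufa8 match reads on the opposite strand. The stretches are chr13:74350241-74350300 (Sdha), chr5:115349041-115349100 (Cox6a1), chr2:10080433-10080492 (Atp5c1) and chr2:36049339-36049398 (Ndufa8).
Sdha: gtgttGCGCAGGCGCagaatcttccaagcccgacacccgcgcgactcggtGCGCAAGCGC
Cox6a1: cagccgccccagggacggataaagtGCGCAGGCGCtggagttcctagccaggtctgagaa
Atp5c1: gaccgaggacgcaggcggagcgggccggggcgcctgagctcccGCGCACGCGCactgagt
Ndufa8: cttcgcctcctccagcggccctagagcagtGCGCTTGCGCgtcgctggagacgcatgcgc

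The Sdha stretch ends at the base before the start of the gene, and its promoter held 3 matches in all, 2 of them in the stretch. The other motifs searched, each on both strands, were also read as letters only. The GABPA letters ACCGGAAG were in 7 member promoters (9.86%, against 2.3% of all promoters), the YY1 motif (AA, any base, ATGGCG, any base, C) in 8 (11.3% against 1.51%) and the letters TCAAGGTCA of the oestrogen-related receptors in 2 (2.82% against 0.423%). Of the E-boxes that myogenic factors bind, CAGCTG was in 5 (7.04% against 16.3%) and CACCTG in 15 (21.1% against 20.2%). Of the 12 members with a promoter entry that were called in some comparison below, 5 had the NRF1 letters, and so did 11 of the 54 that were not called. A match is a description of the sequence and not a measured binding site.

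The values are log2 RMA signals, a measure of hybridisation brightness. Across the 12 arrays the median over all clusters ran from 4.862 to 5.061, and replicates of a group correlated at 0.9886 to 0.996. Myog itself read 9.66, 10.18 and 9.89 on the control arrays, 10.39, 10.3 and 10.4 with Dox, 6.93, 7.96 and 8.21 with SB, and 8.1, 8.23 and 8.68 with SB+Dox. It fell by 2.21 with SB (limma, adjusted p = 9.39e-05), whereas the doxycycline differences, 0.46 against control and 0.64 against SB, did not pass (adjusted p = 0.467 and 0.157). The SB label states that Myog is not expressed, but its signal stayed above the array medians there, and doxycycline induction was not a called change. The sources used here do not say whether the probes read the transgene, and the groups are named by their labels throughout. Of the 18 adipocyte, macrophage, endothelial and osteoblast markers measured, 0 had a mean above the highest array median in every group. Plin1 came close, at 5.23 in control, 5.15 with Dox, 5.23 with SB and 5.06 with SB+Dox. Of 5 neuronal markers 2 lay above it in every group. All 11 muscle lineage markers did so, with a mean of 9.77 on the control arrays, 9.76 with Dox, 9.2 with SB, and 9.59 with SB+Dox. With SB, 5 of the 11 fell (Myog, Ckm by 0.96, Acta1 by 0.74, Myod1 by 0.56 and Cdh15 by 0.52) and Myf5 rose by 0.60. From SB to SB+Dox 3 rose (Myh3 by 1.63, Ckm by 1.00 and Acta1 by 0.95) and 0 fell, and from Dox to SB+Dox Myog, Myod1 and Cdh15 fell and Myf5 rose. The part of this shift in the changes of the members was not tested. In whole cultures, fewer cells of a type and less RNA per cell cannot be told apart.

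For most members the signal was highest in SB+Dox. Their mean signals ran from 3.05 to 11.56 with a median of 8.55, which describes the brightness of the probes and does not rank the transcripts. No filter on low signal was used, so all 81 were tested. Only 7 members, among them the testis isoforms Cox7b2, Cox6b2 and Cox8c, lay within 1 log2 unit of the highest array median or below. The highest of the 4 group means was SB+Dox for 59 members, SB for 14, Dox for 7 and control for 1, compared with 20.7%, 35.6%, 26.9% and 16.8% of all clusters. Of all clusters tested, 93.1% had a mean below the members' median. Shares and medians of all clusters here and below therefore describe mostly dimmer ones. The brightest clusters, each against its own mean, had medians of 0.04, 0.04 and 0.05 on SB+Dox arrays. Their medians were 0.02, 0.0005 and -0.04 with Dox, 0.02, 0.05 and -0.07 in control, and -0.1, -0.03 and 0.02 with SB. Whether members differ from clusters of like brightness was not tested. The changes of the members were small throughout. The range of a member's 4 group means had a median of 0.27 (0.23 over all clusters) and a maximum of 0.57, and no member passed 1.5-fold in any comparison.

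**Figure D1:**
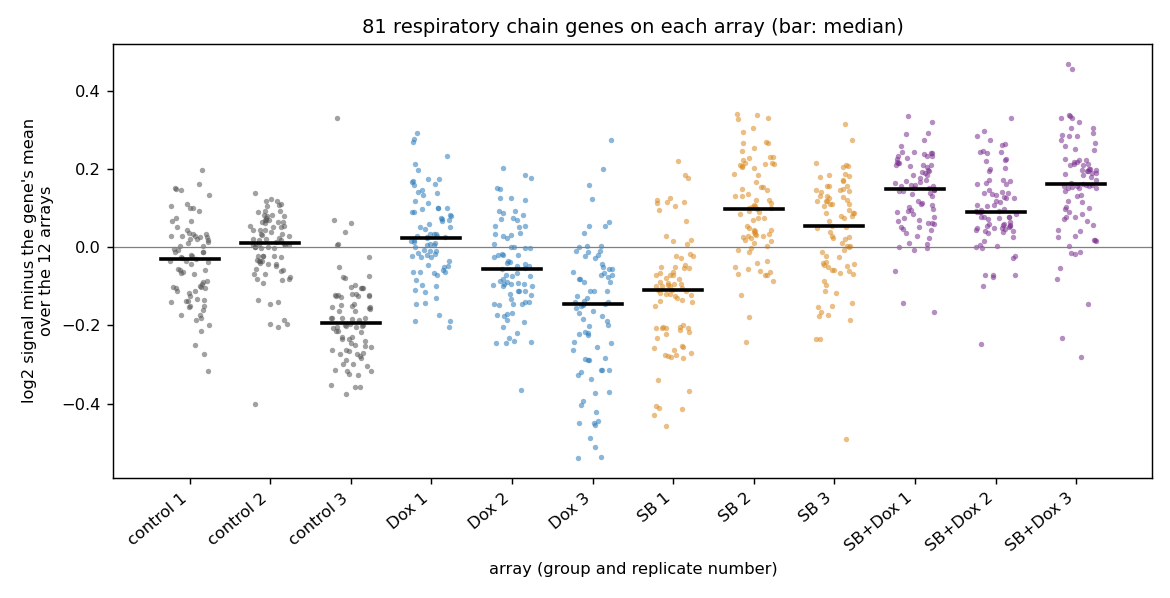
Log2 signal of each of the 81 genes minus its own mean over the 12 arrays (vertical axis), for each array (horizontal axis, by group and replicate). Points are genes and bars are medians, which run from 0.09 to 0.16 in SB+Dox and are lowest on control 3 (-0.19), Dox 3 (-0.15) and SB 1 (-0.11).

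The members differed between arrays of a group as well as between groups. On SB+Dox arrays 75, 72 and 73 of the 81 members were above their own mean, and the median SD of a member between those 3 arrays was 0.06, compared with 0.11 over all clusters. In control, Dox and SB the median SD was 0.14, 0.13 and 0.14. Control 3, Dox 3 and SB 1 stood apart, with 6, 10 and 15 members above their own mean against 25 to 75 on the other 9 arrays. These were also the 3 arrays with the lowest upper quartile of signal over all clusters (6.61 to 6.62 against 6.65 to 6.71). After quantile normalization their median member deviations were -0.14, -0.12 and -0.05, and those of the other arrays ran from -0.06 to 0.13. The part of these 3 arrays in each result is given below by leaving them out together, an alternative chosen after seeing the data.

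**Figure D2:**
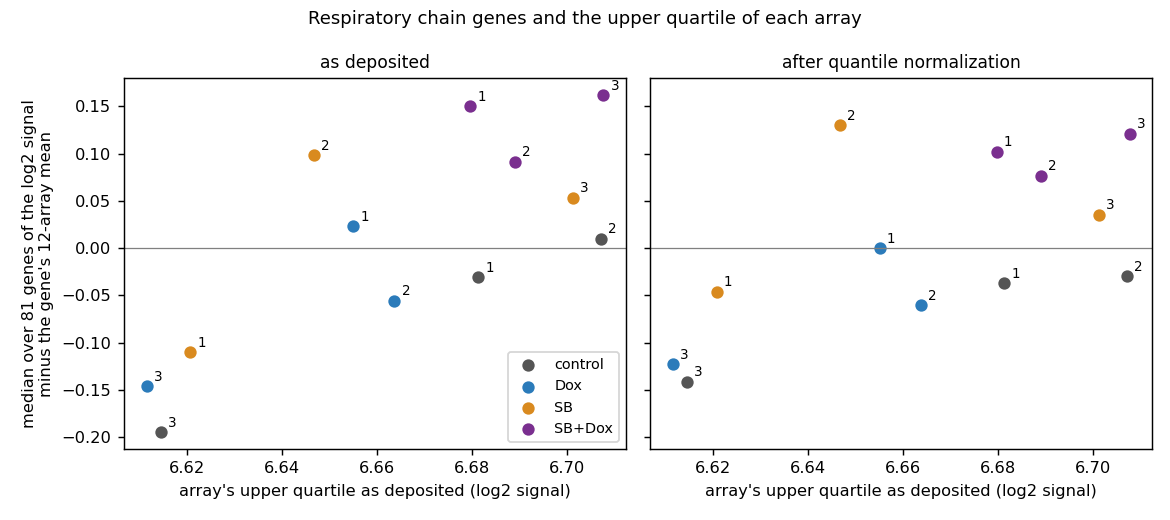
Median deviation of the 81 genes from their own means (vertical axis, log2) against the upper quartile of all clusters on that array (horizontal axis, log2 signal), as deposited on the left and after quantile normalization on the right. Points are the 12 arrays, coloured by group and numbered by replicate, and the 3 arrays at 6.61 to 6.62 lie lowest on the left.

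Adding SB203580 without doxycycline raised 2 accessory subunits of complex I, Ndufv3 by 0.45 ± 0.10 (SE) on the log2 scale and Ndufc2 by 0.36 ± 0.10. A gene was called at an adjusted p under 0.05 in limma, with Benjamini-Hochberg adjustment over all 21789 clusters. Thus 2 members were called higher, where 2.51% of all clusters were, and 0 were called lower, where 3.87% were. At an unadjusted p under 0.05 there were 7 members (8.64%, against 17.3% of all clusters). The median change was 0.08 (0.03 over all clusters), and 61 members had a positive difference. The SB arrays lay wholly above the control arrays for 8 members, against 10.3% of all clusters. Ndufc2 was lost when any of 9 arrays was left out, and both genes were lost without control 3 or without SB 2. Without the 3 arrays of low upper quartile Ndufv3 alone stayed called.

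Adding SB203580 to doxycycline-treated cells gave the most calls, 12 members higher and 0 lower, where 6.97% and 3.43% of all clusters were called. They were Cyc1, Ndufc2, Sdha, Cox6a1, Ndufb5, Sdhb, Ndufb9, Ndufa8, Cox7a2l, Ndufa10, Ndufa6 and Atp5c1, with changes of 0.33 to 0.57, or 1.26-fold to 1.48-fold. The median change was 0.18 (-0.03 over all clusters), 72 members had a positive difference, and 30 passed an unadjusted p under 0.05 (37.0%, against 20.9% of all clusters). The SB+Dox arrays lay wholly above the Dox arrays for 41 members, against 15.6% of all clusters. Cyc1, Ndufc2 and Sdha were called under all 23 alternatives. The count fell to 3 without Dox 3, 4 without SB+Dox 1 and 5 without SB+Dox 2 or SB+Dox 3, was 8 without Dox 2, and rose to 18 without control 3. Without the 3 arrays of low upper quartile it was 6, namely Cox6a1, Cyc1, Ndufb5, Ndufc2, Sdha and Sdhb.

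Adding doxycycline to inhibited cells raised Uqcrq, a small subunit of complex III, by 0.53 ± 0.11 and Atp5g1, which encodes the ring subunit c of ATP synthase, by 0.39 ± 0.09. These 2 members were called higher, where 4.4% of all clusters were, and 0 were called lower, where 2.71% were. At an unadjusted p under 0.05 there were 18 members (22.2%, against 20.9%). The median change was 0.12 while that of all clusters was -0.04, and 65 members had a positive difference. The SB+Dox arrays lay wholly above the SB arrays for 23 members (12.8% of all clusters) and wholly below for 3, Ndufa8, Uqcrh and Atp5g3 (12.3% of all clusters). Without SB 1 or SB+Dox 3 no member was called, and without SB 3 there were 6, the added ones being Ndufa9, Ndufb9, Ndufs1 and Ndufs4. Leaving out the 3 arrays of low upper quartile, SB 1 among them, left 0 calls.

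With doxycycline and no inhibitor no member passed the test. In limma 0 were called higher and 0 lower, where 1.43% and 3.88% of all clusters were called. At an unadjusted p under 0.05 there were also 0 members, against 14.6% of all clusters, and all 23 alternatives gave 0 calls. The median change was 0.01, the same as over all clusters, and 42 members had a positive difference. The 95% intervals of all 81 changes lay within 1.5-fold, the widest bounds being -0.5 for Uqcr11 and 0.5 for Cox7b2, and the half-width had a median of 0.24. The Dox arrays lay wholly above the control arrays for 3 members (9.12% of all clusters), Ndufs5, Ndufv3 and Atp5g1, with changes of 0.20, 0.12 and 0.16. For Ndufv3 the gap was smaller than the second decimal, at 7.35 on both sides.

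With both agents against neither, 8 members were called higher, where 2.84% of all clusters were, and 0 lower, where 2.42% were. They were Ndufb9 (0.48), Ndufc2 (0.46), Ndufv3 (0.44), Uqcrq (0.43), Ndufb5 (0.42), Cox6a1 (0.4), Sdha (0.39) and Atp5g1 (0.36). The median change was 0.2 (-0.02 over all clusters), 77 members had a positive difference, and 31 passed an unadjusted p under 0.05 (38.3%, against 15.8%). The SB+Dox arrays lay wholly above the control arrays for 49 members, against 12.5% of all clusters. No member was called without control 1, control 3 or SB+Dox 2, 1 was called without SB+Dox 1 (Ndufv3) or SB+Dox 3 (Ndufc2), 4 without control 2 and 5 without Dox 2. Without the 3 arrays of low upper quartile there were 2, Ndufc2 and Ndufv3.

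Whether doxycycline acted differently with and without the inhibitor was tested as the interaction, the first change minus the second. No member was called, with 0 higher and 0 lower in limma where 0.725% and 0.17% of all clusters were, and 0 in all 23 alternatives. At an unadjusted p under 0.05 there were 4 members (4.94%, against 11.4% of all clusters). The median was 0.13 (-0.03 over all clusters), 63 members were positive, and the values ran from -0.25 for Uqcrh to 0.42 for Cyc1. The intervals were wide at this number of arrays, with a median half-width of 0.34.

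**Figure D3:**
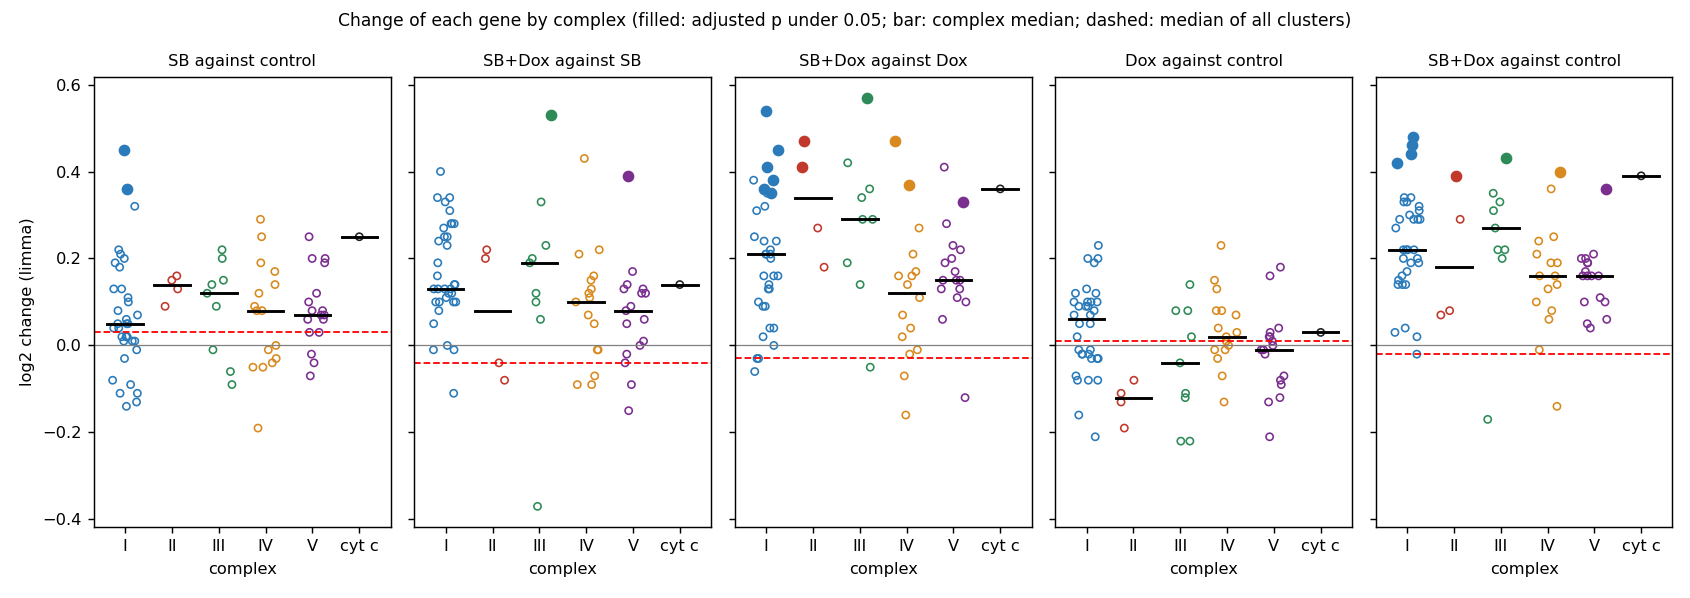
Log2 change of each of the 81 genes (vertical axis) by complex (horizontal axis) in 5 comparisons, 1 per panel. Filled points are genes called by limma at an adjusted p under 0.05, black bars are medians of a complex and dashed red lines the median of all clusters; the panel of SB+Dox against Dox holds the 12 filled points.

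The SB203580 change could be set side by side without and with doxycycline, because those comparisons share no array. Deviations of same-number SB and SB+Dox arrays from their group means did correlate, at 0.44, 0.19 and 0.49. The changes set side by side may therefore not be independent. Across the 81 members the changes correlated at r = 0.51 (0.57 over all genes), where members are not independent of each other. Both were positive for 55 members, or 67.9%, against 28.9% of all genes. The doxycycline change without and with the inhibitor gave r = 0.41 (0.44 over all genes), with 37 members positive in both (45.7%, against 24.2% of all genes). The remaining pairs of comparisons share the SB+Dox or other arrays, and no likeness between them is given.

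**Figure D4:**
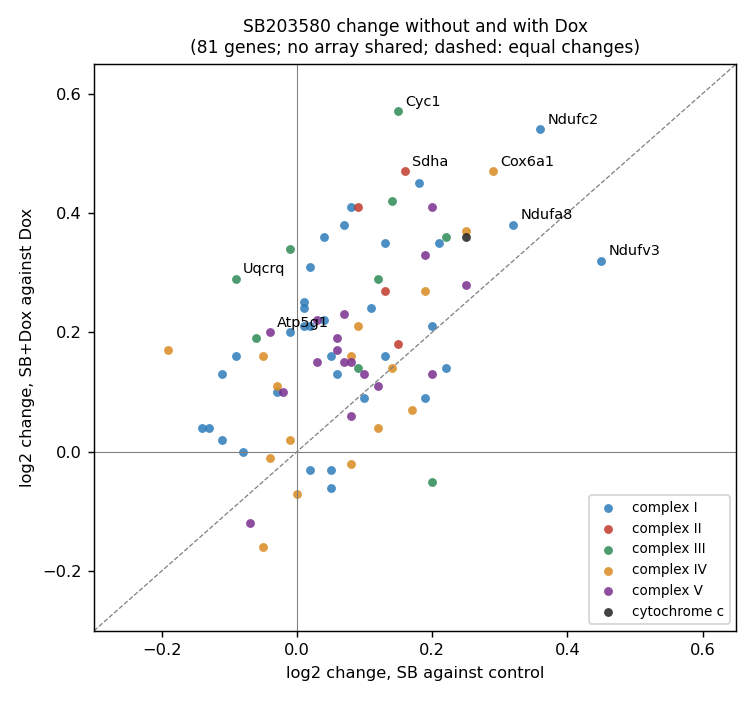
Log2 change of SB+Dox against Dox (vertical axis) and of SB against control (horizontal axis) for the 81 genes, coloured by complex. Points above the dashed line of equal changes were higher with doxycycline present; Cyc1 (0.57 against 0.15) and Ndufc2 (0.54 against 0.36) are the highest.

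In at least 1 of the 6 comparisons 15 members were called, against 18.2% of all genes (1 cluster per gene), a share near that of the 81. Complex I, with 34 of the 81 members, held 7 of the 15, namely Ndufa6, Ndufa8, Ndufa10, Ndufb5, Ndufb9, Ndufc2 and Ndufv3. These are accessory subunits, which surround the catalytic core, as are 28 of the 34. Its 34 genes had medians of 0.05 for SB against control, 0.13 for SB+Dox against SB, 0.21 for SB+Dox against Dox, 0.06 for Dox against control and 0.22 for SB+Dox against control. The 6 core subunits measured, which belong to the catalytic part, had 0 calls in limma. Their medians were -0.04, 0.18, 0.18, 0.04 and 0.16 in the same order, and those of the 28 accessory subunits were 0.05, 0.13, 0.21, 0.06 and 0.25. The difference between core and accessory subunits was not tested.

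Ndufc2, an accessory subunit of the membrane arm, read 8.84, 8.98 and 8.74 on the control arrays, 8.93, 8.8 and 8.59 with Dox, 9.16, 9.27 and 9.21 with SB, and 9.33, 9.37 and 9.25 with SB+Dox. All 6 arrays with the inhibitor lay above all 6 without it. It rose by 0.36 ± 0.10 (SE) from control to SB (adjusted p = 0.0475) and by 0.54 ± 0.10, or 1.46-fold, from Dox to SB+Dox (adjusted p = 0.00232). Ndufv3, an accessory subunit next to the site of NADH oxidation, read 7.34, 7.35 and 7.23 on the control arrays, 7.35, 7.49 and 7.43 with Dox, 7.57, 7.85 and 7.83 with SB, and 7.64, 7.72 and 7.86 with SB+Dox. Here too the arrays with the inhibitor lay above those without it. The rise was 0.45 ± 0.10 from control to SB (adjusted p = 0.0138), while 0.32 from Dox to SB+Dox just missed the threshold (adjusted p = 0.0594).

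Ndufb5 and Ndufb9, accessory subunits of the membrane arm, had another pattern. Ndufb9 read 8.59, 8.77 and 8.46 on the control arrays, 8.79, 8.62 and 8.62 with Dox, 8.48, 8.7 and 8.89 with SB, and 9.04, 8.99 and 9.22 with SB+Dox. The SB+Dox arrays lay above every other array, and the other 3 groups overlapped. The rise was 0.41 ± 0.12 from Dox (adjusted p = 0.0394) and 0.48 ± 0.12 from control (adjusted p = 0.0294), and the difference from SB was 0.4. Ndufb5 likewise had all SB+Dox arrays (9.2, 9.17 and 9.2) above the highest other array (9.12, SB 3), and rose by 0.45 ± 0.11 from Dox (adjusted p = 0.0147). Ndufa10 rose by 0.36 ± 0.10 from Dox to SB+Dox and Ndufa6 by 0.35 ± 0.10 (adjusted p = 0.0243 and 0.0329).

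Ndufa8, an accessory subunit facing the intermembrane space, had its highest values in SB. It read 8.32, 8.26 and 8.02 on the control arrays, 8.12, 8.09 and 7.89 with Dox, 8.47, 8.6 and 8.5 with SB, and 8.47, 8.37 and 8.41 with SB+Dox. Both inhibitor groups lay above both groups without it. It rose by 0.38 ± 0.10 from Dox to SB+Dox (adjusted p = 0.0218).

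No core subunit passed the test in any comparison. Ndufs7, named after its value was seen, came nearest. It differed by 0.38 between SB+Dox and Dox (adjusted p = 0.057), and those arrays did not overlap. It was called there with centring, both filters on low signal, trend, array weights or the replicate block, and without control 3 or SB 3. Ndufs1, an iron-sulfur subunit, read 8.92, 9.04 and 8.64 on the control arrays, 9.04, 9.03 and 8.79 with Dox, 8.68, 8.78 and 9.09 with SB, and 9.15, 9.12 and 9.21 with SB+Dox. Its SB+Dox arrays lay above all others, yet the difference of 0.31 from SB did not pass (adjusted p = 0.176). Ndufv1, which binds NADH and flavin, differed by -0.14 between SB and control and by 0.28 between SB+Dox and SB (adjusted p = 0.108). Ndufv2 differed by 0.33 between SB+Dox and control (adjusted p = 0.0903). Among other accessory subunits, Ndufa9 differed by 0.34 and Ndufb8 by 0.13 between SB+Dox and SB.

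In complex II, succinate dehydrogenase, which also works in the tricarboxylic acid cycle, the catalytic pair rose and the membrane anchors did not pass. Sdha, the flavoprotein, read 8.66, 8.73 and 8.44 on the control arrays, 8.6, 8.56 and 8.44 with Dox, 8.62, 8.86 and 8.84 with SB, and 8.97, 8.97 and 9.06 with SB+Dox. The SB+Dox arrays lay above all others. From Dox to SB+Dox it rose by 0.47 ± 0.10, or 1.38-fold (adjusted p = 0.0073), and from control by 0.39 ± 0.10 (adjusted p = 0.0391). Sdhb, the iron-sulfur subunit, rose by 0.41 ± 0.11 from Dox to SB+Dox (adjusted p = 0.0308). It read 7.76, 7.81 and 7.58 in Dox and 8.14, 8.13 and 8.12 in SB+Dox, which did not overlap. The anchors Sdhc and Sdhd differed by 0.27 and 0.18 in that comparison (adjusted p = 0.206 and 0.521). The difference between the catalytic pair and the anchors was not tested.

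In complex III the heme protein cytochrome c1, Cyc1, had the largest change of any member. It read 10, 10.06 and 9.69 on the control arrays, 9.8, 9.85 and 9.45 with Dox, 9.94, 10.2 and 10.07 with SB, and 10.31, 10.19 and 10.31 with SB+Dox. It rose by 0.57 ± 0.13, or 1.48-fold, from Dox to SB+Dox (adjusted p = 0.00743). SB+Dox arrays lay above all Dox and control arrays and overlapped the SB arrays. Dox 3 was the lowest array.

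Uqcrq, which sits near the ubiquinone site, read 8.06, 8.05 and 8.08 on the control arrays, 8.36, 8 and 8.25 with Dox, 7.77, 8.2 and 7.95 with SB, and 8.52, 8.46 and 8.52 with SB+Dox. The SB+Dox arrays lay above all others. It rose by 0.53 ± 0.11, or 1.44-fold, from SB (adjusted p = 0.0112) and by 0.43 ± 0.11 from control (adjusted p = 0.04). The core proteins Uqcrc1 and Uqcrc2 differed by 0.34 and 0.29 between SB+Dox and Dox, and the Rieske iron-sulfur protein Uqcrfs1 by 0.36 (adjusted p = 0.0763, 0.0642 and 0.0816).

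Uqcrh, the hinge protein that docks cytochrome c, ran the other way. It read 8.78, 8.89 and 8.67 in SB and 8.5, 8.46 and 8.28 in SB+Dox, so that every SB+Dox array lay below every SB array. The change was -0.37, with an adjusted p of 0.141. The labels do not say whether arrays of the same replicate number belong together. With replicate number as a block over all 4 groups, Uqcrh passed the limma test (adjusted p = 0.0285), as the only member lower in any comparison there. With array weights Uqcrh was also called lower from SB to SB+Dox. Cycs, the mobile carrier, read 9.28, 8.9 and 9.2 in Dox and 9.49, 9.39 and 9.57 in SB+Dox, which did not overlap. Its change of 0.36 did not pass (adjusted p = 0.103), nor did 0.39 from control (adjusted p = 0.109).

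Complex IV had the smallest median in SB+Dox against Dox, 0.12 over 16 genes, and 2 calls. Among the 16 are Cox4i2, Cox6b2, Cox7b2, Cox8c and Ndufa4l2, which belong to the 7 members of low signal given above. Their differences were -0.16, -0.02, -0.07, 0.14 and 0.17, and a median without them was not taken. Cox6a1, the isoform of subunit VIa found outside muscle, read 8.73, 8.83 and 8.71 on the control arrays, 8.84, 8.68 and 8.54 with Dox, 8.89, 9.24 and 9 with SB, and 9.14, 9.21 and 9.13 with SB+Dox. All arrays with the inhibitor lay above all without it. It rose by 0.47 ± 0.11 from Dox to SB+Dox (adjusted p = 0.00824) and by 0.4 ± 0.11 from control (adjusted p = 0.0397), and the 0.29 between SB and control did not pass. Cox7a2l, which joins complexes III and IV into supercomplexes, rose by 0.37 ± 0.10 from Dox to SB+Dox (adjusted p = 0.0292), and a second cluster of the gene also passed (0.4, adjusted p = 0.0325). Its readings were 8.38, 8.15 and 8.17 in Dox and 8.64, 8.59 and 8.58 in SB+Dox.

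The other structural subunits of complex IV were not called. In SB+Dox against Dox the difference was 0.02 for Cox4i1, 0.11 for Cox5a, 0.16 for Cox5b, -0.01 for Cox6b1, 0.16 for Cox6c, 0.07 for Cox7a2, 0.04 for Cox7b and 0.21 for Cox8a. For Cox6c and Cox8a every SB+Dox array lay above every Dox array. Cox4i2, the isoform known from lung and low oxygen, differed by -0.16 (adjusted p = 0.442). Ndufa4, first described in complex I and now placed in complex IV, differed by 0.27 (adjusted p = 0.116). Of the muscle isoforms that the rule left out, Cox6a2 fell by 1.00 with SB, rose by 1.77 from SB to SB+Dox and rose by 0.62 with Dox alone (adjusted p = 0.00239, 5.57e-05 and 0.0493). Cox8b rose by 0.68 from SB to SB+Dox and by 0.69 with Dox alone (adjusted p = 0.0347 and 0.0397), and Cox7a1 was not called, with changes of 0.02 to 0.16. The Cox8b call from SB to SB+Dox was lost in 7 of 23 alternatives. With Dox alone the 2 isoforms called higher became 0 to 2 over the alternatives, and also when 1 array was left out.

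In complex V the called genes were Atp5g1, which encodes the c-ring subunit, and Atp5c1, the rotating gamma subunit. Atp5g1 read 8.51, 8.55 and 8.39 on the control arrays, 8.64, 8.63 and 8.66 with Dox, 8.33, 8.57 and 8.44 with SB, and 8.8, 8.85 and 8.89 with SB+Dox. The Dox arrays lay above those of control and of SB, and the SB+Dox arrays above all others. It rose by 0.39 ± 0.09 from SB to SB+Dox (adjusted p = 0.0132), and its second cluster passed too (0.33, adjusted p = 0.0452). Atp5g2 and Atp5g3, which encode the same mature protein, differed by 0.05 and -0.15 in that comparison and were not called.

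Atp5c1 read 11.12, 11.11 and 11.02 on the control arrays, 11.08, 10.9 and 10.86 with Dox, 11.26, 11.25 and 11.3 with SB, and 11.3, 11.23 and 11.3 with SB+Dox. Arrays with the inhibitor lay above those without it. It rose by 0.33 ± 0.09 from Dox to SB+Dox (adjusted p = 0.0232). The catalytic subunits Atp5a1 and Atp5b differed by 0.41 and 0.15 there (adjusted p = 0.0777 and 0.408), and Atp5o, in the stalk, by 0.23. Dox 3 gave the lowest Atp5a1 reading, 10.51, against 11.15 to 11.22 in SB+Dox.

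**Figure D5:**
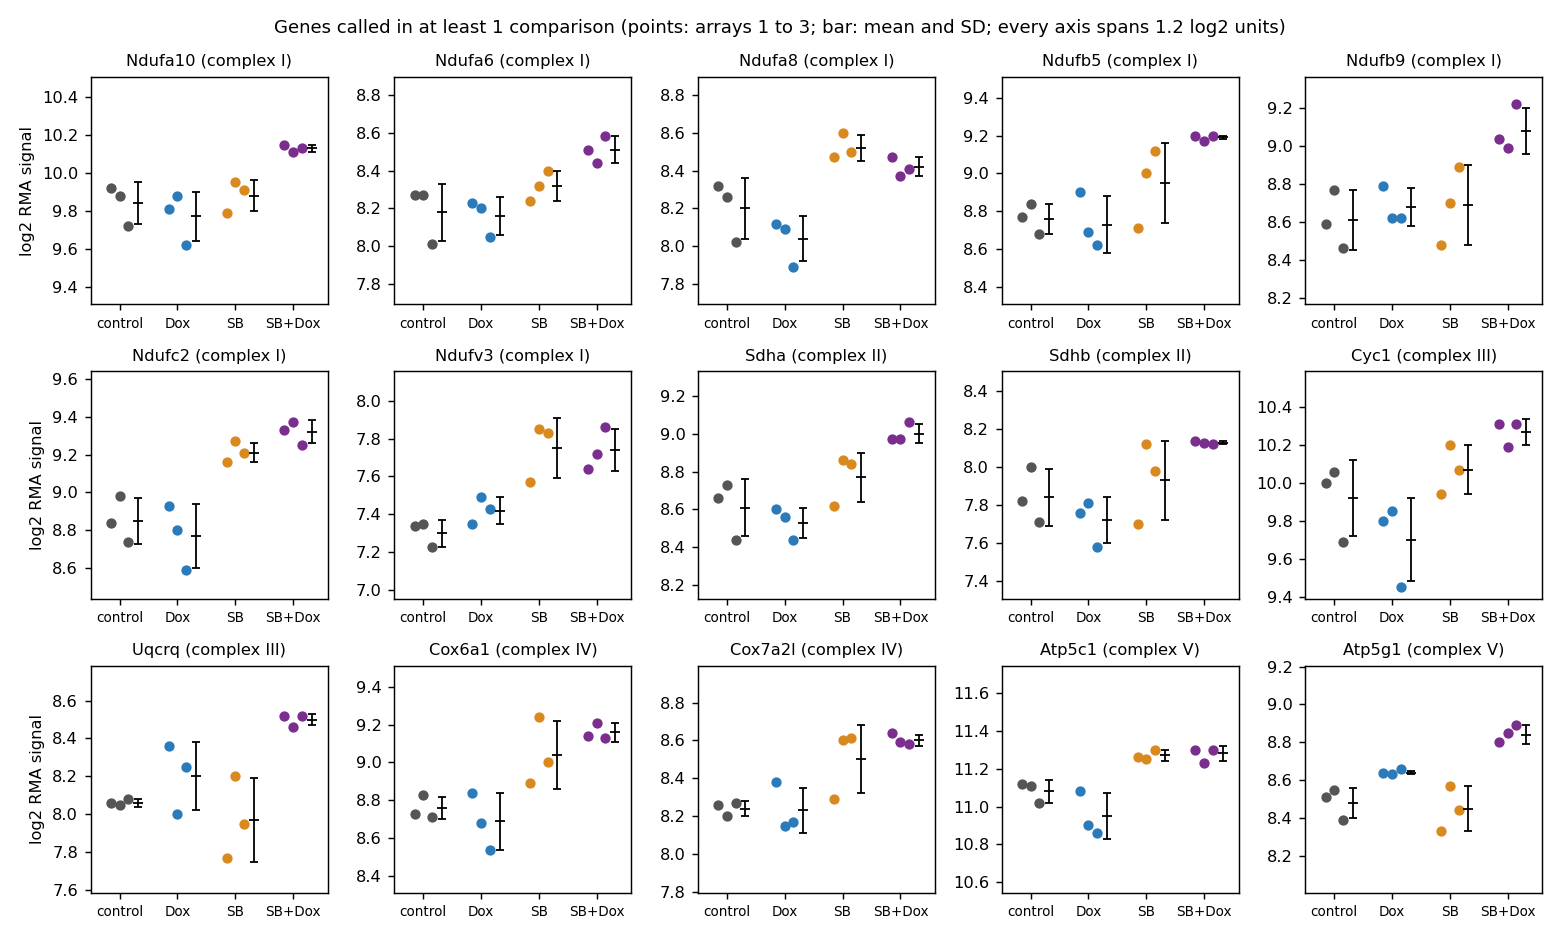
Log2 RMA signal (vertical axis, spanning 1.2 log2 units in every panel) of the 15 genes called in at least 1 comparison, by group (horizontal axis). Points are the 3 arrays of a group and the bar beside them is the mean with its SD. For Ndufa8, Ndufc2, Ndufv3, Cox6a1 and Atp5c1 all arrays with the inhibitor lie above all without it. For Ndufa6, Ndufa10, Ndufb5, Ndufb9, Sdha, Sdhb, Uqcrq and Atp5g1 the SB+Dox arrays lie above all others, for Sdhb by less than the second decimal.

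Of the 81 members 18 had more than 1 cluster, and of the 27 clusters not chosen only those of Atp5g1 and Cox7a2l given above were called in any comparison. Every cluster of a gene had the same sign in 17 of these 18 for SB against control, 15 for SB+Dox against SB, 16 for SB+Dox against Dox and for SB+Dox against control, 13 for Dox against control and 14 for the interaction. In SB+Dox against Dox Ndufb11 was among the exceptions, with 0.22 on its chosen cluster.

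Around the subunits, genes that build and supply the chain were followed in lists. Of 48 assembly factors, which insert cofactors and join subunits, 6 were called higher from SB to SB+Dox and 0 lower, with a median of 0.21, where 4.4% of all clusters were called higher. From Dox to SB+Dox 8 were higher, where 6.97% of all clusters were. Uqcc1, a complex III assembly factor, fell by 0.48 ± 0.10 with SB (adjusted p = 0.00715) and rose by 0.55 ± 0.10 from SB to SB+Dox (adjusted p = 0.00317). Sco1, which delivers copper to complex IV, rose by 0.49 ± 0.10 and Lrpprc, which stabilises mitochondrial mRNA, by 0.46 ± 0.11 from SB to SB+Dox. Cmc2 rose by 0.51 ± 0.12 with SB (adjusted p = 0.0178). These calls of Cmc2 and Lrpprc were each lost in 6 of 23 alternatives. When 1 array was left out, the 6 factors higher from SB to SB+Dox became 2 to 9. The 8 higher from Dox to SB+Dox became 2 to 11.

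Of 18 genes of the tricarboxylic acid cycle and pyruvate entry, 9 were called higher from Dox to SB+Dox and 0 lower, with a median of 0.34, where 6.97% and 3.43% of all clusters were called. The count was 6 to 11 when 1 array was left out. From SB to SB+Dox 2 were higher, Dld by 0.59 and Suclg1 by 0.4, where 4.4% of all clusters were. With SB alone Idh2 rose by 0.56 ± 0.10 (limma, adjusted p = 0.00262). The Suclg1 call was lost in 7 of 23 alternatives and the Dld call in 3. Among 18 genes of fatty acid oxidation, Hadh rose by 0.89 ± 0.11, Cpt1a, which admits fatty acids to mitochondria, by 0.74 ± 0.11 and Acaa2 by 0.51 ± 0.11 with SB, and 0 were called lower. Of all clusters 2.51% were called higher and 3.87% lower with SB. From SB to SB+Dox 0 of the list were higher and 1 was lower, where 4.4% and 2.71% of all clusters were. That gene was Cpt1a, which fell by 0.43 (limma, adjusted p = 0.0261), a call lost in 7 of 23 alternatives. From Dox to SB+Dox 5 of the list were higher, these 3 with Eci2 and Acads, where 6.97% of all clusters were. Doxycycline without the inhibitor lowered 4 of these 18 genes (Eci2, Acaa2, Cpt1a and Hadh) and 2 of the cycle (Pcx and Idh2), where 3.88% of all clusters were lower. Over the 23 alternatives these counts were 1 to 4 and 1 to 2. Eci2, Acads and Pcx were named after their values were seen.

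Of 77 mitochondrial ribosomal proteins, 6 (7.79%) rose from SB to SB+Dox and 0 fell, where 4.4% and 2.71% of all clusters did (1 to 11 rose when 1 array was left out), among them Mrpl13 by 0.54, Mrps18b by 0.48 and Mrpl33 by 0.45. From Dox to SB+Dox 6 (7.79%) were higher and 1 was lower, where 6.97% and 3.43% of all clusters were. The lower gene was Mrpl52, named after its value was seen. Mrpl13 was the 1 gene of the list lower with SB, by 0.46 (adjusted p = 0.0494), a call lost in 13 of 23 alternatives. Of 25 import genes, 4 rose and 0 fell from SB to SB+Dox, where 4.4% and 2.71% of all clusters did (1 to 4 rose when 1 array was left out), including the chaperone Hspa9 by 0.55, Timm8a1 by 0.5 and Timm10 by 0.43. Hspa9 fell by 0.37 with SB (adjusted p = 0.039), a call lost in 11 of 23 alternatives. Of the rises from SB to SB+Dox, that of Timm8a1 was lost in 7 alternatives and that of Mrpl13 in 5.

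Among 26 nuclear regulators of mitochondrial biogenesis, 1 rose and 1 fell with SB, where 2.51% and 3.87% of all clusters did. Ppargc1a read 5.49, 5.18 and 4.5 on the control arrays, 4.79, 4.85 and 4.31 with Dox, 6.2, 5.85 and 5.79 with SB, and 6.01, 5.79 and 5.81 with SB+Dox. All arrays with the inhibitor lay above all without it, and control 3 and Dox 3 were lowest. Without the inhibitor its readings lay on both sides of the array medians of 4.862 to 5.061, so the signal there was low. Ppargc1a rose by 0.89 ± 0.21, or 1.86-fold, with SB (limma, adjusted p = 0.0171) and by 1.22 ± 0.21 from Dox to SB+Dox (adjusted p = 0.00114). The first call was lost in 4 of 23 alternatives. These were every cluster tested, no control 3, no SB 1, and the 3 arrays of low upper quartile left out. Tfb2m, a factor of mitochondrial transcription, fell by 0.69 ± 0.17 with SB (adjusted p = 0.0245), and Tfb1m rose by 0.52 from SB to SB+Dox. Each of these calls was lost in 6 of 23 alternatives. Of the factors whose motifs were searched, Nrf1 differed by -0.13 between SB and control, Gabpa by -0.18, Yy1 by -0.16 and Esrra by 0.16, and none of these was called. Of the myogenic factors, which bind E-boxes, Myog and Myod1 fell and Myf5 rose with SB, as given above.

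Outside these lists, the genes whose 4 group means lay nearest to the median profile of the members were Bpnt2, Coq10a, Me3, Map11 and Slc8b1. They were chosen by Euclidean distance between centred group means among 2965 genes whose group means spanned at least 0.5, and the distances were 0.21 to 0.24. The members' profile was -0.07 in control, -0.04 with Dox, 0.01 with SB and 0.13 with SB+Dox. It spans less than the 0.5 asked of these genes, so none could match it closely. Coq10a, a ubiquinone-binding protein, had means of 6.85 on the control arrays, 7 with Dox, 7.01 with SB, and 7.36 with SB+Dox.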

How the data were processed

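Log2 signals were deposited for 35557 transcript clusters on 12 Affymetrix arrays, summarised with RMA in Affymetrix Expression Console per the submitters' processing notes. Versions and the genome build are not given in the sources used here. Arrays have no read depth, and their number limits the precision.

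A mean per group was fitted to all 12 arrays with limma 3.58.1 in R 4.3.3 (lmFit and eBayes, 8 residual and 6.56 prior degrees of freedom, statmod 1.5.0 for the alternatives), over the 21789 clusters with 1 symbol. P-values were adjusted by Benjamini-Hochberg within each of 6 comparisons, with calls at an adjusted p under 0.05. The fit was tested on simulated data. The members, lists, rule for named genes and alternatives were chosen with earlier results of these data known. The text names members called without overlap of groups, fixed representative subunits, up to 3 called genes per list in SB against control and in SB+Dox against SB, and the 5 genes nearest in pattern. Members were counted on 1 cluster per gene. Lists have counts and medians and no test, and neuronal markers had 2 of 5 above the highest array median in every group, with Syt1 lower from SB to SB+Dox.

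Deviations of same-number arrays from group means correlated at 0.44, 0.19 and 0.49 for SB and SB+Dox. Arrays of different numbers were not compared, and 1 value of another pair, control 3 and Dox 3, was 0.39. Pairing is therefore not established, and the main fit uses none. For every other pair of groups at least 1 correlation was under 0.1. Alternatives were other scalings, filters on low signal, trend and array weights, all clusters, the mean of a gene's clusters, fits on 2 groups, a replicate block and leaving out each array, and 3 arrays together. Clusters without exactly 1 symbol were not used, among them 6 that name a subunit.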

Additional observations from a re-analysis of the deposited data

Results flagged for a closer look

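The doxycycline change differed with and without the inhibitor for 4 genes of the lists, none of them a subunit among the 81. For Cox6a2, the muscle isoform of a complex IV subunit, the interaction was 1.16 ± 0.24 (SE, limma, adjusted p = 0.0413), with a doxycycline change of 0.62 without the inhibitor and 1.77 with it. The call was lost in 13 of 23 alternatives, quantile normalization and 10 of the 12 single arrays left out among them. For Pcx, pyruvate carboxylase, it was 1.25 ± 0.25 (adjusted p = 0.0364), with a doxycycline change of -0.7 without the inhibitor and 0.55 with it, the latter not called, and 13 of 23 alternatives lost it. For Hadh, an enzyme of fatty acid oxidation, it was 0.85 ± 0.15 (adjusted p = 0.0228), with a doxycycline change of -0.54 without the inhibitor and 0.31 with it, the latter not called. That call was lost in 7 of 23 alternatives. For Cox18, a complex IV assembly factor, it was 0.58 ± 0.12 (adjusted p = 0.039), with a doxycycline change of -0.28 without the inhibitor, not called, and 0.29 with it, and 14 of 23 alternatives lost it.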

How the results depend on the processing

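No called member changed direction under any of the 23 alternatives, and 3 of the 24 calls (Cyc1, Ndufc2 and Sdha in SB+Dox against Dox) passed under every one. The median member change was 0.02 to 0.14 in SB against control, 0.06 to 0.2 from SB to SB+Dox, 0.14 to 0.24 from Dox to SB+Dox, 0.15 to 0.24 with both agents against neither, 0.05 to 0.21 for the interaction and -0.05 to 0.06 in Dox against control. Counts of called members depended on the setting. The 2 in SB against control became 0 with each array centred on its median, 5 with array weights, 1 with every cluster tested, 0 with only the arrays of the 2 groups, 1 without the 3 arrays of low upper quartile, and 0 to 2 with each array left out. The 2 in SB+Dox against SB became 5 with clusters under the 50th percentile left out, 6 with array weights (Uqcrh, lower, among them), 1 with only 2 groups, 0 without the 3 arrays, and 0 to 6 with each array left out. The 12 in SB+Dox against Dox became 20 with the 50th percentile filter, 19 with array weights, 7 with every cluster tested, 6 without the 3 arrays, and 3 to 18 with each array left out. The 8 in SB+Dox against control became 2 with centring, 14 with the 50th percentile filter, 13 with array weights, 1 with every cluster tested, 2 without the 3 arrays, and 0 to 9 with each array left out. Testing every cluster or fewer clusters changes the number adjusted over, and leaving out arrays lowers the number measured; for the other settings the cause was not tested.

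With the replicate block 3 members were called in SB against control, 3 in SB+Dox against SB (Uqcrh added, lower), 16 in SB+Dox against Dox and 8 with both agents against neither, and 0 with doxycycline alone or for the interaction. Whether arrays of the same number share more than that number is not stated in the labels. With 3 arrays per group the median half-width of an unadjusted 95% interval was 0.24, while calls needed an adjusted p under 0.05. The smallest called change of a member was 0.33, for Atp5c1 from Dox to SB+Dox. Some larger ones were not called, such as 0.42 for Uqcr11 there (limma, adjusted p = 0.0572).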
